A study of Mus musculus with 6 samples.

Results

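The genes described here are the heavy chains of MHC class I and their shared light chain B2m (beta-2-microglobulin), measured in the submandibular gland, one of the major salivary glands. Of 10 genes chosen by name (B2m, H2-K1, H2-D1, H2-Q4, H2-Q7, H2-T22, H2-T23, H2-T24, H2-M3 and Cd1d1), 9 had a probe set with that platform gene symbol, each of them 1 probe set, out of 19505 genes with a named probe set. H2-Q7 had no probe set under its symbol, and no value is given for it. Total RNA came from 6 female mice aged 10 weeks, labelled NOD.B6-Myd88+/+ (3 mice) and NOD.B6-Myd88−/− (3 mice), with 1 Clariom S array per mouse and no treatment named in the labels. The NOD strain develops autoimmune infiltrates of the salivary glands, and Myd88 is the adaptor of most Toll-like receptors and of the interleukin-1 receptor family. The comparison asks which transcripts of the gland differ with the Myd88 genotype. The sources used here do not say how the targeted allele was made or in which cells it acts. Values are on a log2 scale after RMA, the robust multi-array average, and all differences are Myd88−/− minus Myd88+/+ on that log2 scale.

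An MHC class I molecule is a heavy chain bound to B2m and to a short peptide, and without B2m most heavy chains do not reach the cell surface. The classical heavy chains H2-K1 and H2-D1 are made by nearly all nucleated cells and show peptides from inside the cell to CD8 T cells, while the non-classical Q, T and M chains have narrower roles and Cd1d1 presents lipids to NKT cells. Interferons raise the transcription of these genes through the interferon-stimulated response element (ISRE), kB sites bind NF-kB, and a further promoter module of S, X and Y boxes is used by the transactivator Nlrc5. NOD mice carry the H2g7 haplotype, which is not that of C57BL/6J, the strain of the RefSeq assembly, so that some alleles differ between them. Both genotypes share the NOD background by their labels, and near-identical genes of this family can share probes.

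Promoter sequences are shown first, and the known elements of class I promoters were looked for in them. Whether these elements have a part in the genotype differences was not tested. The RefSeq table of GRCm38.p6 had a promoter for 7 of the 9 measured genes, with none listed for H2-T24 and Cd1d1. The 250 bases before each transcript start were searched on both strands for the class I ISRE core AAGTGAAA, the ISRE consensus (GAAA, any 2 bases, GAAA), the kB forms (GGG, any 4 or any 5 bases, CCC), the X2 half-site TGACG and the Y box ATTGG. The kB forms can overlap each other, as can the ISRE forms. These forms were settled on after the promoters had been read, so the counts describe these sequences and test nothing. The 200 bases before the start are printed 5′ to 3′ for B2m and H2-D1, which hold an ISRE, a kB form and the spaced pair described below the sequences, for H2-Q4 and H2-M3, which hold some, and for H2-T23, which holds the fewest. Capitals mark the matches.
B2m, chr2:122147487-122147686, plus strand: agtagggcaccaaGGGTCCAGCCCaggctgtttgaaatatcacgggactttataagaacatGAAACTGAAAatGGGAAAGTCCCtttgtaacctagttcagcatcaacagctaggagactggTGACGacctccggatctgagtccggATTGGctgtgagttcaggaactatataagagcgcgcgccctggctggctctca
H2-D1, chr17:35262894-35263093, plus strand: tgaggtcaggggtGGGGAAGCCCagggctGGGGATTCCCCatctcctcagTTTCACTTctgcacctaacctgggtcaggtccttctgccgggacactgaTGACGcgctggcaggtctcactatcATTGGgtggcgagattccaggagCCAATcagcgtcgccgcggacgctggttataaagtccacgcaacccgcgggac
H2-Q4, chr17:35379417-35379616, plus strand: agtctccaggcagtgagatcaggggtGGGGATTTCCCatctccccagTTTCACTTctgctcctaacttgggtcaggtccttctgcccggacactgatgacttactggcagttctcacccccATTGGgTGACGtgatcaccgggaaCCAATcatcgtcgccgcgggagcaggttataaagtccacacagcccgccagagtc
H2-M3, chr17:37270034-37270233, plus strand: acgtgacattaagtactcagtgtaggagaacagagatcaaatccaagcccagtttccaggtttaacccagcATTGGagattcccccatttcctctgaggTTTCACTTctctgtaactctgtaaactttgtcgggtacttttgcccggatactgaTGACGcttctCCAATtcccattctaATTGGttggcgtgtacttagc
H2-T23, chr17:36032702-36032901, minus strand: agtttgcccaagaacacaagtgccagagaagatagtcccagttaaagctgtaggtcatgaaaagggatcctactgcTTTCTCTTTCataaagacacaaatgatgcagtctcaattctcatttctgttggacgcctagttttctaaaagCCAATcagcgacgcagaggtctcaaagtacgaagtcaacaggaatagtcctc

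An ISRE of either form was found before all 7 genes, against 4.07% of the 32851 promoters in the table. Either kB form was found in 5 of 7, all but H2-T23 and H2-M3, against 17.1% of promoters. The X2 half-site alone was found in 6 of 7 (17.8% of promoters) and the Y box alone in 7 of 7 (33.8%). An X2 half-site followed after 19 or 20 bases by a Y box on the same strand was found before B2m, H2-K1, H2-D1 and H2-M3, 4 of 7, against 0.128% of promoters. An ISRE, a kB form and this spaced pair occurred together in 6 of the 32851 promoters, which belong to 5 genes: B2m, H2-K1, H2-D1, H2-Q7 and Trim26. The H2-K1 window resembles that of H2-D1, with the longer kB form at 111 to 101, the ISRE core at 90 to 83, the X2 half-site at 41 to 37 and the Y box at 16 to 12 bases before its start. H2-K1 has 2 entries in the table, of which the first was used, and its window lies inside the span of the RefSeq record of H2-K1 itself, so that a transcript model starts further upstream. For that reason its sequence is not printed, and these positions hold for that start only. As paralogs, these promoters are not independent of each other. A match is a run of letters in the reference strain and no evidence of binding in these glands.

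**Figure D1:**
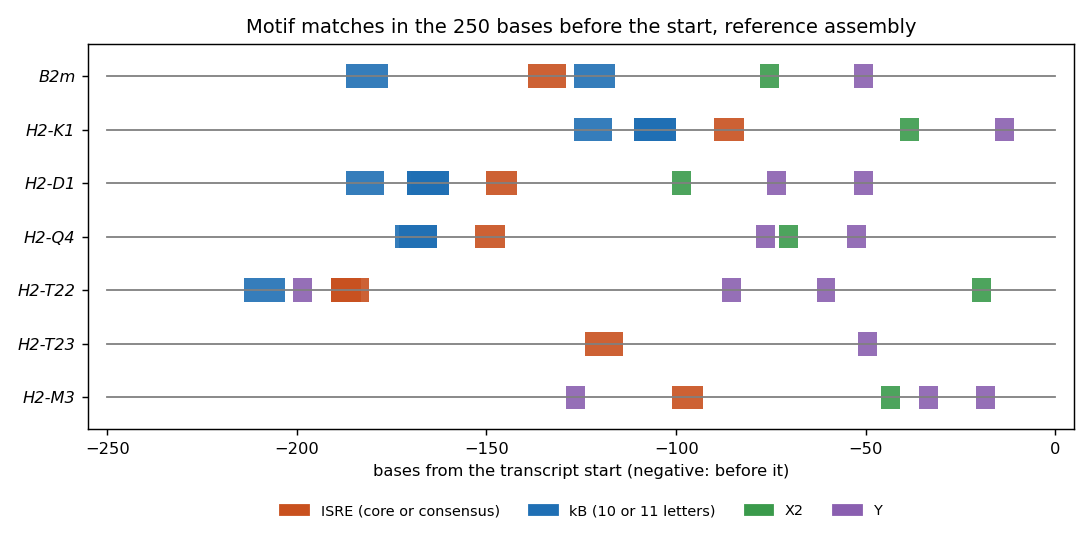
Positions of motif matches in the 250 bases before the transcript start of 7 measured genes, with the distance from the start in bases on the horizontal axis and 1 line per gene. Orange marks the ISRE forms, blue the kB forms, green the X2 half-site and purple the Y box. B2m, H2-K1, H2-D1 and H2-M3 have an X2 half-site followed after 19 or 20 bases by a Y box, while H2-T23 has 1 ISRE match and 1 Y box match.

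Array medians ranged from 6.0003 to 6.10 on the log2 scale. Myd88, with 1 probe set, had values of 7.81, 7.86 and 7.53 in the Myd88+/+ mice numbered 1, 2 and 3. In the Myd88−/− mice of the same numbers it had 7.33, 6.80 and 7.47. The groups did not overlap, by 0.06, and the difference was −0.53 (SE 0.21, limma adjusted p = 0.462, two-sided exact permutation p = 0.1, the smallest that 3 mice against 3 allow). Without Myd88−/− replicate 2 it was −0.33. As the deleted stretch is not stated in those sources, this probe set is a weak check of the labels. By RefSeq, Myd88 lies on chromosome 9, B2m on chromosome 2, Cd1d1 on chromosome 3 and the H2 genes on chromosome 17. Background control probe sets had a median of 5.55, and the highest value that the deposited table holds is 19.93.

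All 9 measured class I genes had a lower mean in Myd88−/− than in Myd88+/+ glands, with a median log2 difference of −0.71, while the median over all 22206 tested probe sets was 0.02. A difference under 0 was found in 47.5% of all tested probe sets. At least 2-fold lower were 3 genes, B2m, H2-D1 and H2-K1, against 0.829% of all tested probe sets. None of the 9 passed limma's test after Benjamini-Hochberg adjustment over all probe sets (0 of 9, adjusted p from 0.345 to 0.635), and 0 of 22206 probe sets passed (0%). At an unadjusted limma p under 0.05, 6 of the 9 were lower, against 5.55% of all probe sets. That count was 2 without moderation of variances, 9 without Myd88+/+ replicate 1, 4 without Myd88+/+ replicate 2 or 3 or Myd88−/− replicate 2 or 3, and 3 without Myd88−/− replicate 1. Over these fits the share of all probe sets lower at that threshold ran from 3.77% to 7.32%. In 5 of the 9 every Myd88−/− mouse lay below every Myd88+/+ mouse, against 7.25% of all probe sets. All 9 genes remained when the dimmest 50% of probe sets were left out, and brighter probe sets leaned lower. Of the probe sets kept, 8.71% were lower at an unadjusted limma p under 0.05 and 11.2% were lower without overlap. Their median difference was −0.07. In bulk tissue, fewer cells of a type and less RNA per cell cannot be told apart.

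The light chain B2m had the largest difference of the 9. In Myd88+/+ replicates 1, 2 and 3 its values were 17.18, 17.83 and 18.64, and those of the Myd88−/− replicates were 16.48, 16.77 and 16.25 in the same order. Every Myd88−/− gland was below the lowest Myd88+/+ gland, with a gap of 0.41. The group means were 17.88 ± 0.73 and 16.50 ± 0.26 (SD, n = 3 each), a difference of −1.38 (SE 0.33), or a 2.60-fold lower level, at limma adjusted p = 0.345. Over the alternatives with a test its adjusted p ran from 0.146 without Myd88+/+ replicate 1 to 0.681, and without Myd88+/+ replicate 3 the difference was −1.002. The highest B2m value, 18.64, lay near the ceiling of 19.93.

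Both classical heavy chains had about a 2-fold lower mean. For H2-K1 the values of Myd88+/+ replicates 1, 2 and 3 were 13.70, 14.36 and 15.35, and the Myd88−/− replicates had 13.53, 13.53 and 13.24. The 3 Myd88−/− glands lay within 0.30 of each other and all below Myd88+/+ replicate 1, by 0.17 or more. The H2-K1 difference was −1.04 (SE 0.36, limma adjusted p = 0.428), a 2.05-fold lower level. H2-D1 read 11.23, 11.39 and 13.01 in Myd88+/+ and 10.77, 11.05 and 10.56 in Myd88−/− replicates 1, 2 and 3. Here Myd88+/+ replicate 3 stood far above all other glands, while the groups were parted by 0.19. The H2-D1 difference was −1.09 (SE 0.41, limma adjusted p = 0.452), a 2.12-fold lower level. Much of both differences came from that 1 mouse: without Myd88+/+ replicate 3 the difference was −0.60 for H2-K1 and −0.52 for H2-D1.

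Of the 3 chosen genes of the T region, H2-T22, a non-classical chain seen by some gamma-delta T cells, parted the genotypes most clearly. It read 7.23, 7.30 and 7.78 in Myd88+/+ and 6.64, 6.94 and 6.58 in Myd88−/− replicates 1, 2 and 3, with no overlap and a gap of 0.29. The difference was −0.71 (SE 0.20, limma adjusted p = 0.384), a 1.64-fold lower level, and −0.54 without Myd88+/+ replicate 3. H2-T23, the Qa-1 chain that shows leader peptides of other class I chains to the CD94-NKG2 receptors of NK cells, read 7.03, 7.60 and 7.90 in Myd88+/+ and 6.62, 6.64 and 7.21 in Myd88−/−. Its groups overlapped, because Myd88−/− replicate 3 lay above Myd88+/+ replicate 1, and the difference was −0.69 (SE 0.26, limma adjusted p = 0.45). H2-T24 read 9.68, 10.15 and 9.87 in Myd88+/+ and 9.48, 9.54 and 9.66 in Myd88−/− glands. Its groups were parted by 0.02 only, and its difference, −0.34 (SE 0.18, limma adjusted p = 0.562), was the smallest of the 9. It became −0.22 without Myd88+/+ replicate 2 and −0.21 after quantile normalization.

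H2-M3, which presents peptides that begin with formyl-methionine as in bacterial proteins, read 6.05, 6.59 and 7.47 in Myd88+/+ and 6.01, 5.35 and 6.21 in Myd88−/− replicates 1, 2 and 3. Myd88−/− replicate 3 overlapped with Myd88+/+ replicate 1, and Myd88−/− replicate 2 lay under the background control median. The difference was −0.85 (SE 0.35, limma adjusted p = 0.48), and −0.46 without Myd88+/+ replicate 3. H2-Q4, a chain of the Q region, read 7.001, 8.13 and 8.45 in Myd88+/+ and 7.45, 7.11 and 7.42 in Myd88−/−. Its lowest gland of all was Myd88+/+ replicate 1, so 0 of 3 Myd88−/− mice lay below that group. The difference of −0.53 (SE 0.33, limma adjusted p = 0.635) became −0.24 without Myd88+/+ replicate 3 and −0.96 without Myd88+/+ replicate 1. For Cd1d1 the values were 7.45, 8.29 and 8.01 in Myd88+/+ and 7.43, 7.32 and 7.57 in Myd88−/− glands. Only Myd88−/− replicate 3 reached into the other group, and the difference was −0.48 (SE 0.23, limma adjusted p = 0.524), a 1.39-fold lower level, which became −0.29 without Myd88+/+ replicate 2.

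**Figure D2:**
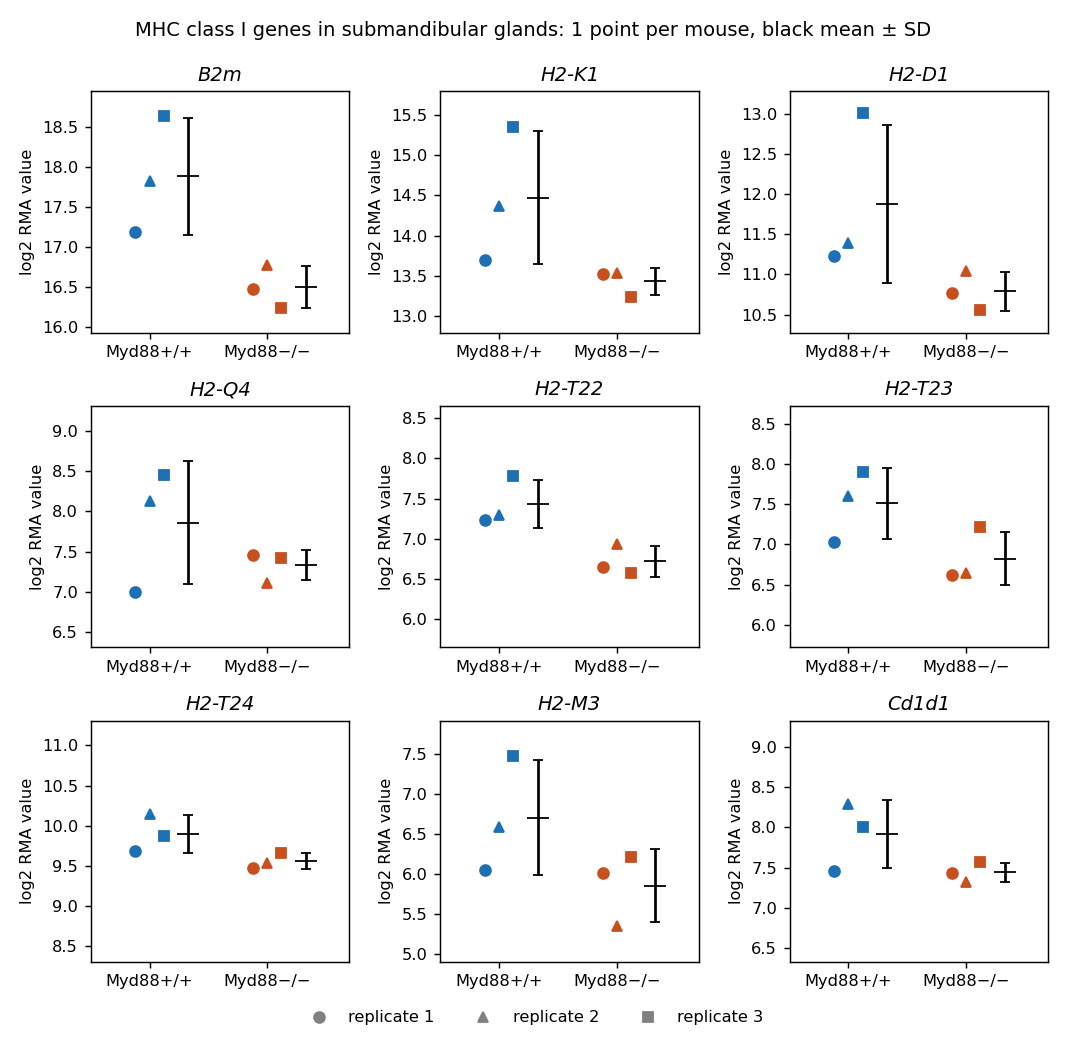
Log2 RMA value of the 9 measured class I genes, 1 panel per gene with axes of equal height, Myd88+/+ in blue and Myd88−/− in orange, 1 symbol per mouse and black bars for the mean ± SD of 3 mice. The orange points lie wholly below the blue ones for B2m, H2-K1, H2-D1, H2-T22 and H2-T24, and the blue points are spread wider in every panel.

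The Myd88+/+ glands differed among themselves more than the Myd88−/− glands did. The range over 3 mice was wider in Myd88+/+ for 9 of 9 genes, against 45.7% of all tested probe sets. For H2-K1 it was 1.65 in Myd88+/+ and 0.30 in Myd88−/−, for H2-D1 it was 1.77 and 0.48, and for H2-T22 0.55 and 0.36. Myd88+/+ replicate 1 was the lowest of its group for all 9 genes and replicate 3 the highest for 7, the exceptions being H2-T24 and Cd1d1, where replicate 2 was highest. These 7 genes had replicate 2 between the others, a ranking shared by 17.2% of all tested probe sets. Averaged over the 9 genes, each centred on its mean over the 6 mice, Myd88+/+ replicates 1, 2 and 3 stood at −0.16, 0.40 and 0.94 and the Myd88−/− replicates at −0.40, −0.42 and −0.37. The lowest wild-type gland was thus nearer to the Myd88−/− glands than to Myd88+/+ replicate 2. Without Myd88+/+ replicate 3 the median difference of the 9 genes was −0.49, and without replicate 1 it was −0.96. Without that replicate 1 all 9 genes parted the genotypes, as did 8 without Myd88−/− replicate 3, when 11.2% and 10.9% of all probe sets did so.

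Each heavy chain was also set against B2m within an array. Since B2m had the largest difference of the 9 genes, the log2 ratio to it had to be higher in Myd88−/− than in Myd88+/+ glands for 8 of 8 heavy chains, and no ratio passed the test. Against the mean of all the other class I genes, B2m among them, the ratio was lower for H2-K1, H2-D1 and H2-M3. For H2-K1 the ratio to B2m was −3.48, −3.46 and −3.29 in Myd88+/+ and −2.96, −3.24 and −3.01 in Myd88−/− replicates 1, 2 and 3, which do not overlap, with a difference of 0.34. For H2-D1 the ratios overlapped and the difference was 0.29 (two-sided exact permutation p = 0.4, adjusted over the 8 ratios 0.4). The largest difference was that of H2-T24, with 1.04, followed by Cd1d1 with 0.90 and H2-Q4 with 0.85. In 6 of 8 ratios, all but H2-D1 and H2-M3, the genotypes did not overlap, each at a two-sided exact permutation p = 0.1, the smallest possible here, and 0.133 after Benjamini-Hochberg adjustment over the 8. The ratio to B2m was higher without overlap for 80.2% of all tested probe sets too, so this count is no more than the background. All ratios share the same 6 B2m values.

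**Figure D3:**
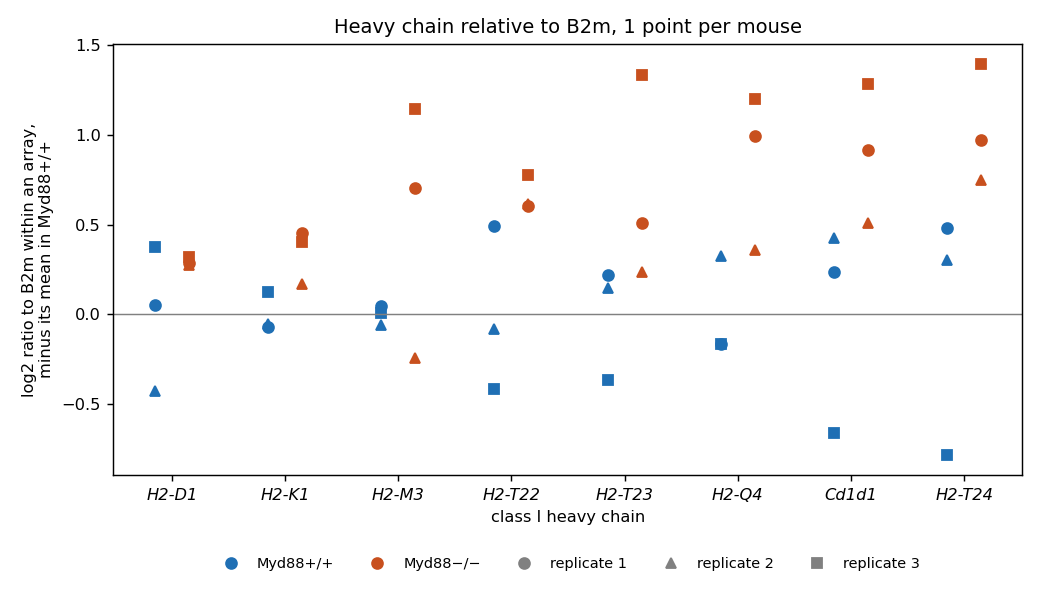
Log2 ratio of each heavy chain to B2m within an array, minus its mean in the 3 Myd88+/+ mice, with the 8 heavy chains along the horizontal axis, Myd88+/+ in blue, Myd88−/− in orange and 1 symbol per mouse. The orange points lie wholly above the blue ones for H2-K1, H2-T22, H2-T23, H2-Q4, Cd1d1 and H2-T24, and the 2 sets overlap for H2-D1 and H2-M3.

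Among other genes of the class I family and of the class I fold many were dim. Of 24 measured genes of 30 listed, 16 had a lower and 8 a higher mean in Myd88−/− glands, with a median difference of −0.16 (17 lower after quantile normalization or cyclic loess). None passed limma's adjusted test (0 of 24), and 3 were lower and 1 higher at an unadjusted p under 0.05, where 5.55% and 4.5% of all probe sets were. Without overlap were 5 lower genes and 1 higher gene, against 7.25% and 7.84% of all probe sets. Both group means were under the background control median for 13 of the 24, among them 7 of the 8 genes with a higher mean. The exception, H2-M10.5, had 0.22 and is named here after its values were seen. H2-T10, a close relative of H2-T22 that can share probes with it, read 10.44, 11.04 and 11.97 in Myd88+/+ and 9.88, 10.104 and 10.08 in Myd88−/− replicates 1, 2 and 3, a difference of −1.13 (SE 0.33, limma adjusted p = 0.388). The groups did not overlap, and Myd88+/+ replicate 3 was again highest. H2-T-ps, a pseudogene of the T region by its symbol, had −0.92 and H2-Q2 −0.79. Fcgrt, the heavy chain of the neonatal Fc receptor, which also pairs with B2m and carries IgG, had −0.91 (SE 0.27, limma adjusted p = 0.388), with no overlap. Cd1d2, the near copy of Cd1d1, had −0.55. H2-M10.4, a chain of the M10 group, known from sensory neurons of the vomeronasal organ, had 0.65, with both group means, 4.70 and 5.35, under the background control median.

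The genes that supply and load peptide were lower alongside the heavy chains in 11 of 13 cases, with a median difference of −0.48. None passed limma's adjusted test (0 of 13), 6 were lower at an unadjusted p under 0.05 (5.55% of all probe sets), and 7 were lower without overlap (7.25%). Tap1, a subunit of the peptide transporter of the endoplasmic reticulum, had the largest difference, −1.59 (SE 0.43, limma adjusted p = 0.368), and the immunoproteasome subunits Psmb9 and Psmb8 had −1.54 and −1.51. The Psmb9 value in Myd88−/− glands, 5.01 on average, lay under the background control median. Psme1 and Psme2, which form the cap of the immunoproteasome, had −0.78 and −0.75, and Tapbp, or tapasin, which bridges heavy chain and transporter, had −0.46. The general chaperones Calr and Canx, named here after their values were seen, had 0.03 each.

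**Figure D4:**
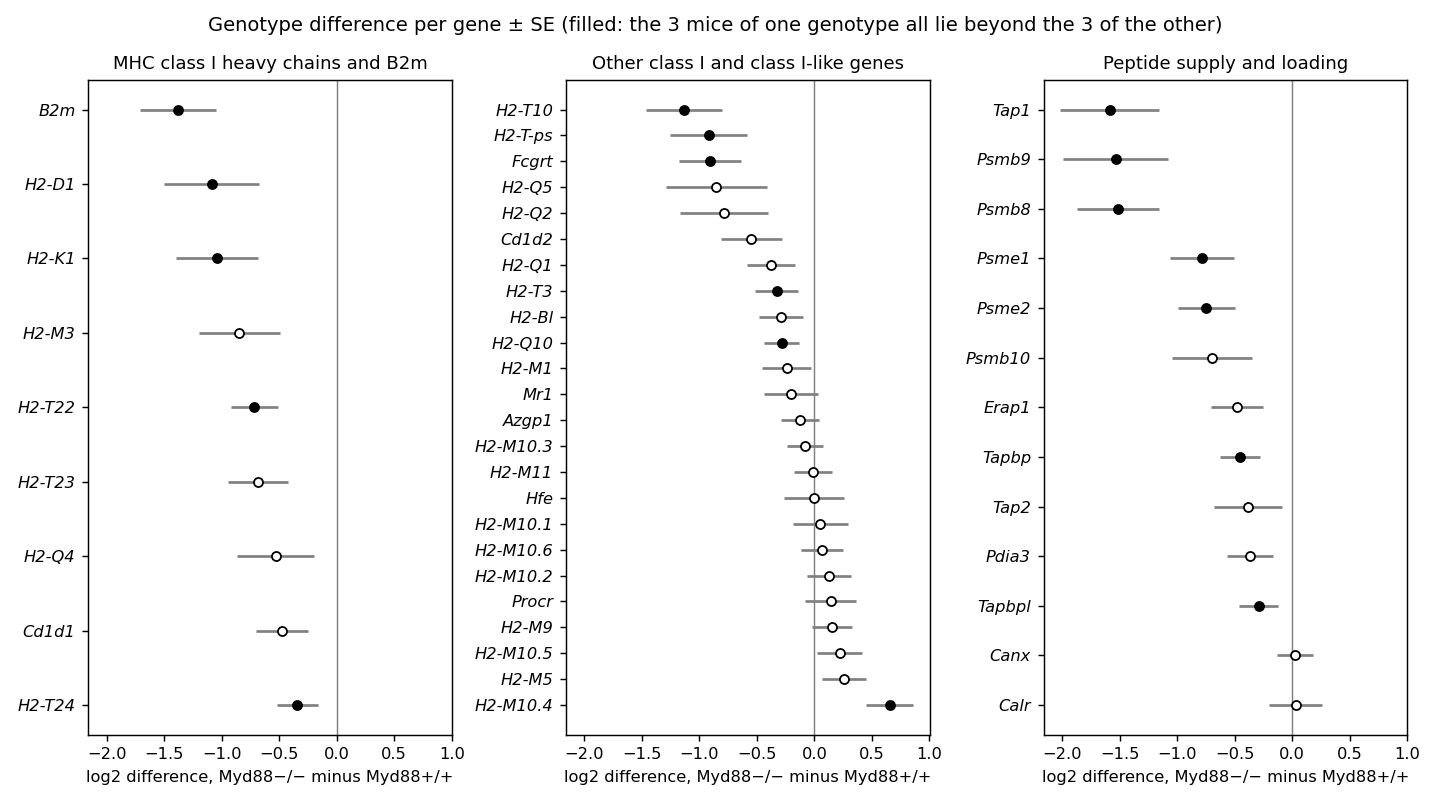
Log2 difference, Myd88−/− minus Myd88+/+, with its SE from limma for the 9 class I genes (left), 24 other genes of the family (middle) and 13 genes of peptide supply and loading (right). Filled points mark genes whose 3 mice of one genotype all lie beyond the 3 of the other, which are 5 of 9 class I genes, 6 of 24 others (5 of them lower) and 7 of 13 loading genes, and all error bars share 1 horizontal scale.

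Among 19 measured of 22 listed genes that drive class I transcription, 15 had a lower mean in Myd88−/− glands (13 after quantile normalization), with a median difference of −0.23, and 0 of 19 passed limma's adjusted test. At an unadjusted p under 0.05, 4 were lower, against 5.55% of all probe sets: Jak2, Irf1, Ifnar2 and Irf9. Irf1, an interferon-gamma-induced factor that binds the ISRE, read 8.27, 8.16 and 9.06 in Myd88+/+ and 7.34, 7.83 and 7.11 in Myd88−/− replicates 1, 2 and 3. Its groups did not overlap, and the difference was −1.07 (SE 0.28, limma adjusted p = 0.361). Jak2, a kinase of the interferon-gamma receptor, had −0.98 (SE 0.21, limma adjusted p = 0.328) without overlap. Ifnar2, a chain of the type I interferon receptor, had −0.44, and Irf9 and Stat2, partners in the factor that binds the ISRE after type I interferon, had −0.81 and −0.68 with overlapping groups. The NF-kB subunit Rela had −0.36. The interferon-gamma gene Ifng itself, named after its values were seen, read 5.55 and 5.24 on average, at or under the background control median, with a difference of −0.31 that did not pass (limma adjusted p = 0.744). Nlrc5 and Nfkb1 are not analysed here.

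Receptors for class I, listed together with relatives of them, were dim. Of 16 measured genes of 19 listed, 9 had both group means under the background control median, among them Cd8a and Cd8b1, the chains of the CD8 coreceptor, named after their values were seen. A lower mean was found for 13 of 16, with a median difference of −0.33, and 0 of 16 passed limma's adjusted test, while 5 were lower at an unadjusted p under 0.05, against 5.55% of all probe sets. The inhibitory receptors Pirb and Lilrb4a of myeloid cells had −1.11 and −0.81, and Klra7, an inhibitory Ly49 receptor of NK cells, had −0.61. The groups overlapped for Pirb and Lilrb4a, and not for Klra7. Lilrb4a is listed as a relative, and binding to class I is not claimed for it.

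Genes outside the class I set that followed B2m most closely were found by the root mean square difference between centred log2 profiles over the 6 mice, among 11384 named genes above the background control median. The 6 nearest were Irgm2, an interferon-inducible GTPase (0.17), Cd180, a Toll-like receptor relative (0.18), Naaa, a lysosomal amidase (0.18), C1qb, a complement subunit made by macrophages (0.19), Trim30a, an interferon-induced TRIM protein (0.20), and H2-T10 (0.20). H2-K1 lay as near to B2m as these, at 0.20, with 5 other genes nearer. H2-D1 stood at 0.28 with 31 other genes nearer, whereas Cd1d1 at 0.60 and H2-T24 at 0.68 had 630 and 1318 nearer. Both the high Myd88+/+ replicate 3 and the genotype enter this measure, which is a description over 6 arrays.

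Markers common to leukocytes and those of macrophages were lower alongside the class I genes, and their part in the result was not tested. The median differences of these lists were −0.74 and −0.92, against −0.39 for T cell and −0.01 for B cell markers. Of 10 genes common to leukocytes 9 had a lower mean in Myd88−/− glands, and the mean log2 level of this list ran from 7.96 to 9.25 in Myd88+/+ and from 7.47 to 7.67 in Myd88−/− mice. Ptprc (CD45), the pan-leukocyte phosphatase, named after its values were seen, read 9.28, 9.91 and 11.43 in Myd88+/+ and 8.28, 8.90 and 8.60 in Myd88−/− replicates 1, 2 and 3, so that Myd88+/+ replicate 3 was highest there too. Fcer1g, a signalling chain of Fc receptors, and Cd52, a leukocyte surface peptide, had −2.08 and −1.83. All 11 of 11 macrophage markers had a lower mean, with list levels of 7.85 to 8.66 and 7.13 to 7.32, and C1qb and Itgam had −1.63 and −1.36, where the Itgam mean in Myd88−/− glands, 5.04, lay under the background control median. T cell markers gave 6 of 8 lower, at 5.67 to 6.58 and 5.53 to 5.75. There Cd3e had 5.13, 5.85 and 8.26 in the Myd88+/+ mice and at most 5.27 in Myd88−/−, while Cd247 had 0.52. Cd3e lay under the background control median in Myd88+/+ replicate 1 and in every Myd88−/− mouse. Both group means of 3 of the 8 T cell genes were under that median too. B cell markers gave 4 of 7 lower, at 4.33 to 4.94 and 4.40 to 4.62, with both group means of 5 of the 7 genes under the background control median. For Fcmr and Cd79a, both among these 5, the differences were −0.54 and −0.22.

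By their means, lists of the endothelium and of the gland's own cells had Myd88+/+ replicate 3 as the lowest of its group. Single genes of both lists ranked otherwise. Endothelial markers gave 7 of 9 lower, with levels of 6.74 to 7.15 in Myd88+/+ and 6.44 to 7.09 in Myd88−/−. Eng and Pecam1 had −0.87 and −0.32. Of 12 acinar and duct markers 2, Klk1 and Prol1, named after their values were seen, were at the ceiling of the scale on every array, 7 were lower and 3 higher, with levels of 13.08 to 13.51 and 12.80 to 13.16. The water channel gene Aqp5 and the acinar factor gene Bhlha15, named after their values were seen as a check of the labelled tissue, averaged 13.98 and 14.81 in Myd88+/+ glands, far above the background control median. Within that list Bpifa2 had −2.66 and Ascl3, a factor of duct cells, −0.96. Bpifa2 read 9.35, 10.07 and 6.27 in Myd88+/+ replicates 1, 2 and 3. It reached 6.38 in Myd88−/− glands, so its groups overlapped. Its range in Myd88+/+, 3.80, weighs on the list mean. Lymph node markers gave 6 of 7 lower, by at most 0.19 on the log2 scale, at 5.07 to 5.69 and 5.23 to 5.33. For 4 of the 7, Madcam1 among them, both group means were under the background control median. The centred mean of that list was −0.28, 0.10 and 0.34 in Myd88+/+ replicates 1, 2 and 3, the ranking that the class I genes have. Ccr7, a homing receptor of lymphocytes named after its values were seen, had 6.43, 7.10 and 8.51 in these mice. It had 7.26, 7.08 and 7.23 in Myd88−/− replicates 1, 2 and 3, with overlapping groups and a difference of −0.16. Ccl21a and Madcam1 had −0.17 and −0.14. For fat, Adipoq and Plin1 had 0.27 and −0.11, and all 3 measured genes of the list for fat and the sublingual gland had both group means under the background control median. Adipoq read 6.31, above that median, in Myd88+/+ replicate 1 and 4.66 and 4.56 in replicates 2 and 3. The centred mean of the fat list was 0.59, −0.33 and −0.38 in these mice, and its part in the result was not tested.

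**Figure D5:**
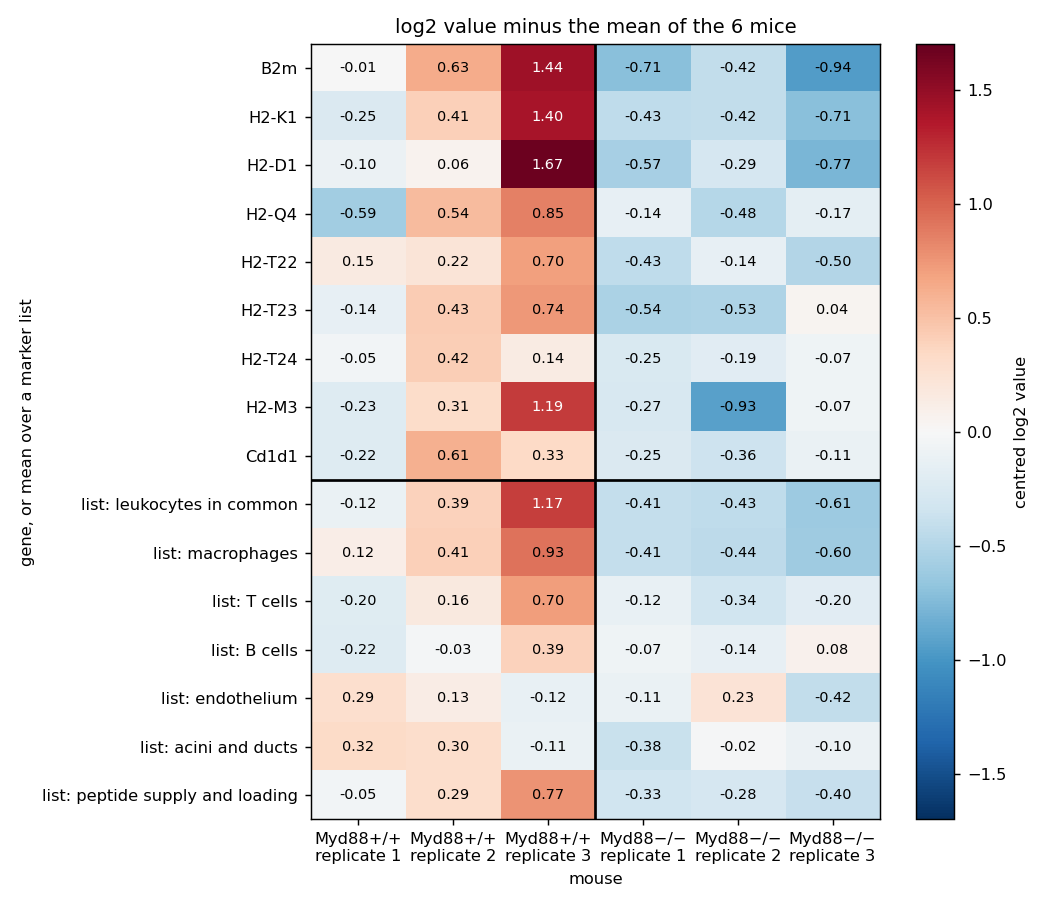
Centred log2 value (value minus the mean of the 6 mice) for the 9 class I genes (upper rows) and the mean over each of 7 gene lists (lower rows), 1 column per mouse, red above and blue below the mean. Myd88+/+ replicate 3 is highest for 7 of the 9 class I genes and for the leukocyte, macrophage, T cell, B cell and loading lists, and is the lowest Myd88+/+ mouse for the endothelial and the acinar and duct lists.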

How the data were processed

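Clariom S arrays of 6 submandibular glands were turned by the authors into log2 RMA values, per the labels. The submitters' processing notes name the Transcriptome Analysis Console. Its version, the RMA variant and a genome build are not stated there, and the log2 scale was checked on the deposited values. Of 28846 probe sets 6640 controls were left out. Symbols came from the platform annotation, and 2634 of the 22206 tested probe sets were unnamed here. For a gene with several probe sets the one with the highest mean was used. Groups came from the titles. Genotypes were tested by lmFit and eBayes of limma 3.58.1 (R 4.3.3) without covariates. Benjamini-Hochberg adjustment covered every non-control probe set, the threshold was 0.05, and the fit was tested on simulated data. The class I genes and all 13 lists were chosen with earlier results of these data known. The text names all class I genes, Myd88, up to 6 genes of the family, loading and transcription lists, 3 receptors and 2 of each marker list by smallest unadjusted p, and the 6 nearest to B2m. Other names are marked as chosen after their values were seen. The alternatives were 3 normalizations, 2 filters on dim probe sets, 3 variance models, the replicate number as a block, leaving out each mouse, all probe sets of a gene, and another reference for the ratios. The number of arrays limits the precision.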

Additional observations from a re-analysis of the deposited data

How the results depend on the processing

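All 9 class I genes kept a lower mean under the 3 normalizations, array weights and each left-out mouse. The other alternatives left the differences as they were by construction. The 0 calls among them and in the 4 lists of related genes held in every alternative with a test. The number of class I genes whose genotypes did not overlap was 5, and 3 after quantile normalization (6.79% of all probe sets), which lost H2-K1 and H2-T24. After cyclic loess the number without overlap was 4 (7.53% of all probe sets). At an unadjusted p under 0.05 the count was 6, and 2 without moderation of variances (3.81% of all probe sets). That count was 7 after median centring (5.88%) and 8 with array weights (6.69%). The cause was not tested. Over fits that left out 1 mouse these counts ran from 5 to 9 and from 3 to 9, the median difference from −0.96 to −0.49 and that of Myd88 from −0.67 to −0.33. The shares of all probe sets beside these counts ran from 10.9% to 15.5% and from 3.77% to 7.32%. Against the mean of the other class I genes, the ratio's difference was −0.28 for H2-K1, −0.33 for H2-D1 and −0.065 for H2-M3. Against B2m, which has the largest difference of the 9 genes, these ratios were higher in Myd88−/− glands. Without the dimmest 50% of probe sets fewer genes remained, and 9 of the family list and 6 of the receptors were lower. With the replicate block the limma adjusted p of B2m was 0.518 and 6 of the 9 genes were lower at an unadjusted p under 0.05 (4.66% of all probe sets). Deviations of same-numbered mice correlated at −0.11, −0.15 and −0.02, so no shared deviation by number was seen. These values cannot tell whether mice were paired by litter, cage or array run. Values near the background or the ceiling limit what can be measured.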
